A study of Danio rerio with 12 samples.

Results

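The genes described here are the Bmp ligands and extracellular modulators of the early zebrafish embryo. These 10 genes were chosen by name, with earlier results of these data known, and were read from every probe set annotated to them. They are 10 of 8793 genes named on the array and 11 of the 15502 probe sets tested, and *fsta* is the gene with more than 1. On the ventral side are the ligands *bmp2b*, *bmp4* and *bmp7a* and the feedback factors *szl*, *bambia* and *bmper*, 6 genes in all. Grouped as the dorsal side, that of the organizer, are the antagonists *chrd*, *nog1* and *fsta* and the ligand *admp*, 4 genes. The sides are labels given to the genes, and where each gene is expressed was not tested here. In the study, *bmp2b*, *bmp4*, *bmp7a*, *szl*, *chrd* and *nog1* were stained by in situ hybridization in control and knockdown embryos. The label is least certain for *fsta*, whose brighter probe set lay below the lower quartile of the arrays at the earliest stage. All 10 were measured.

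Expression was measured on 12 Affymetrix Zebrafish Genome arrays of whole TL-strain embryos, 100 embryos per sample, in 6 groups of 2 arrays. QKD embryos carry a quadruple knockdown of the B1 *sox* genes *sox2*, *sox3*, *sox19a* and *sox19b*. It was made by injecting morpholino antisense oligonucleotides (MOs) that block translation. The samples are labelled 30%E and 75%E, for a blastoderm covering 30% or 75% of the yolk, and TB, for the tailbud stage. Whether QKD embryos were collected by their form or by clock time is not stated. WT embryos with the same stage labels were uninjected, so an effect of injection and an effect of the knockdown cannot be told apart. Epiboly is delayed in QKD embryos, and how far a difference in developmental time enters the values at a stage was not tested. The arrays report whole embryos, in which fewer cells of a type and less RNA per cell cannot be told apart, and 2 arrays per group limit the precision. The labels call the samples biological replicates and the methods call them independent, without saying whether they came from separate clutches.

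The treatment is defined by 8 MOs, 2 for each gene, and their sequences are given because every QKD value below rests on them. Each is written 5′ to 3′, and capitals mark the 5 bases that were exchanged in the study's mismatch control for that MO, a control not hybridized here.
sox2-MO2: gaGagGctgctGaagttacCttaGc
sox2-MO3: gaaaGtctaCccCacCagccGtaaa
sox3-MO1: taCattCttaaaagtgGtgcCaaGc
sox3-MO2: gaaGtcaGtcaaaaGttCagaGagc
sox19a-MO1: gtaCatGgctgcCaacaGaaGttag
sox19a-MO2: aaaaCgaGagcgaGccGtctGtaac
sox19b-MO1: gtaCatCatgcCacttCtcgCtttg
sox19b-MO2: acGagcGagcCtaatcaGgtCaaac
The oligonucleotides act on translation, so the mRNA of their targets does not measure the knockdown. Of the targeted genes, *sox2* mRNA was lower in QKD embryos at 30%E (log2 change -0.94, adjusted p = 0.00182) and higher later (2.25 and 2.14), while *sox3* and *sox19b* were higher at each stage and *sox19a* at 75%E and TB, and with the replicate block described below also at 30%E (adjusted p = 0.0576 without it and 0.0176 with it).

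Bmp ligands form dimers that bind a complex of type I and type II receptors, which phosphorylate Smads 1, 5 and 9, and in the zebrafish gastrula high Bmp activity specifies ventral fates. Antagonists made by the dorsal organizer bind the ligands outside the cell and keep them from their receptors. Several factors made on the ventral side are themselves induced by Bmp and act back on the ligands, on the receptors or on the proteases that cut Chordin.

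At 30%E, 7 of the 10 genes passed the test between QKD and WT embryos, 2 higher and 5 lower, where 8.06% of all probe sets passed, 5.14% higher and 2.92% lower. At 75%E 6 passed, 3 higher and 3 lower, beside 8.39% of all probe sets (4.49% higher and 3.9% lower), and at TB 7 passed, 3 higher and 4 lower, beside 6.36% (3.15% higher and 3.21% lower). The test is limma's moderated test on log2 signal with the Benjamini-Hochberg adjustment over all probe sets, at an adjusted p under 0.05. The 2 samples with the same number within a stage deviated together, and with that number as a block 7, 9 and 9 genes passed at 30%E, 75%E and TB, where 2210, 2622 and 2109 of all probe sets did.

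The 2 sides differed in direction. Among the 6 ventral genes 5 were lower at 30%E, 2 were lower at 75%E, and at TB 3 were lower and 1 was higher. With the block 5 were lower at 30%E, 5 at 75%E and 5 at TB, with 1 higher at TB. Among the 4 dorsal genes 2 were higher at 30%E, 3 were higher and 1 lower at 75%E, and 2 were higher and 1 lower at TB. The median log2 change of the ventral genes was -1.14, -0.58 and -0.58 at 30%E, 75%E and TB, that of the dorsal genes 0.39, 0.69 and 0.22, and that of all probe sets -0.03, -0.02 and 0.01. *chrd* is the dorsal gene that was lower and *bmper* the ventral gene that was higher. The 3 dorsal genes higher at 75%E include *fsta*, whose place on the organizer side was not tested, and the dorsal medians include it too.

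**Figure D1:**
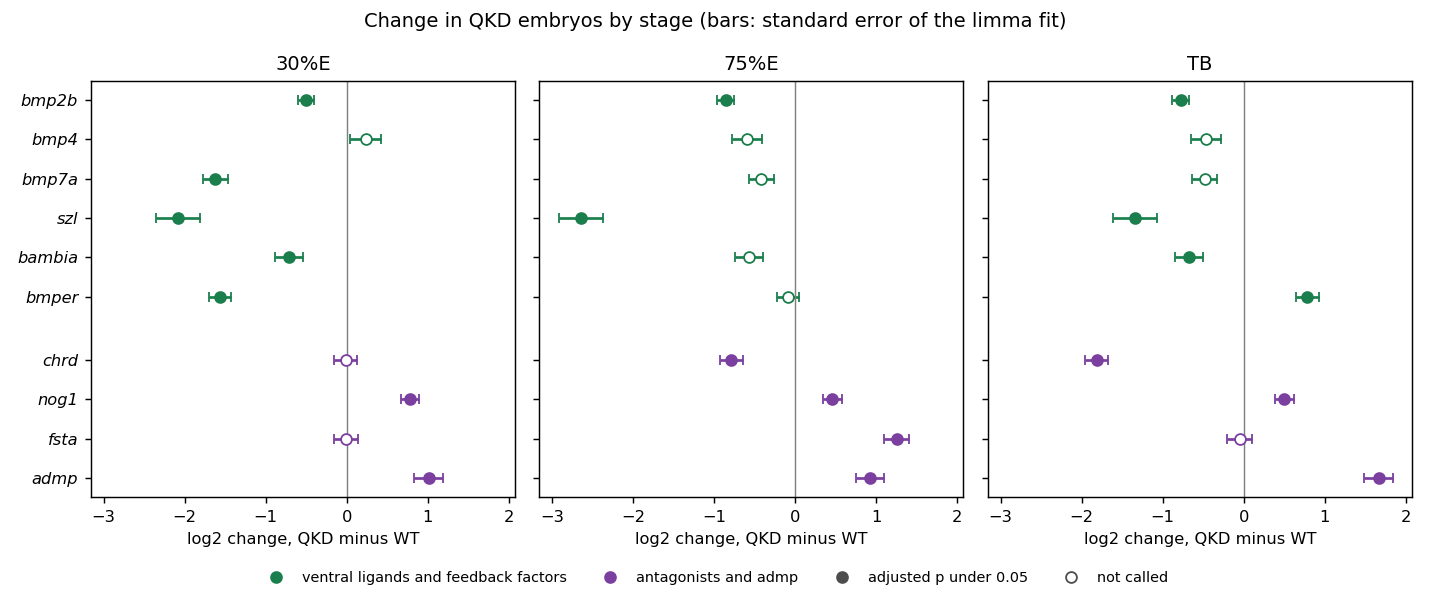
Log2 change of QKD against WT embryos (horizontal axis) for the 10 genes at 30%E, 75%E and TB, with bars of 1 standard error of the limma fit on 2 arrays per group and filled points for an adjusted p under 0.05. The ventral genes lie left of 0 except *bmp4* at 30%E (0.23) and *bmper* at TB (0.79), while *chrd* lies at -0.01, -0.79 and -1.82 in stage order.

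*bmp2b*, a ligand required for ventral fates, was lower in QKD embryos at each stage. Its signal at 30%E was 610.2 and 571 in QKD embryos, against 883 and 792 in WT embryos. At 75%E it was 537 and 532 in QKD embryos, against 943 and 996 in WT embryos, and at TB 382 and 367 in QKD embryos, against 607 and 678 in WT embryos. The groups did not overlap at any stage. The log2 changes were -0.50, -0.86 and -0.78 (SE 0.10 each, adjusted p = 0.0103, 0.000378 and 0.000851). Only 79 probe sets, 0.51% of all, were called lower at all 3 stages, and *szl* is among them too. The 30%E call was lost without replicate 2 of QKD or replicate 1 of WT embryos (adjusted p up to 0.111).

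The course of *bmp2b* over time was compared as well. In QKD embryos the signal at 75%E stood 0.14 below that at 30%E on the log2 scale, whereas in WT embryos it stood 0.21 above (neither called). The difference between those changes, -0.36, was not called (adjusted p = 0.229). From 75%E to TB it fell in both, by 0.52 in QKD and by 0.59 in WT embryos (adjusted p = 0.00424 and 0.00133).

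*bmp7a* encodes the partner of Bmp2b in the heterodimer that signals in the gastrula. At 30%E it gave 146 and 111 in QKD embryos, against 419 and 367 in WT embryos, a 3.08-fold lower level (log2 change -1.62, SE 0.16, adjusted p = 9.49e-05). At 75%E it gave 231 and 266 in QKD embryos, against 337 and 327 in WT embryos. At TB it gave 133 and 113 in QKD embryos, against 189.6 and 155 in WT embryos. The QKD arrays were below the WT arrays at every stage, but the later differences were smaller, -0.42 and -0.48 (adjusted p = 0.135 and 0.102, and 0.0167 and 0.0104 with the replicate block).

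The narrowing of the *bmp7a* difference passed its own test. Between 30%E and 75%E the gene rose by 0.96 in QKD embryos (adjusted p = 0.000202), while in WT embryos the change was -0.24 (adjusted p = 0.210). The QKD change at 75%E thus exceeded that at 30%E by 1.20 (SE 0.22, adjusted p = 0.0113), and that at TB exceeded it by 1.14 (adjusted p = 0.0126). Without replicate 1 of WT embryos at 30%E neither was called (adjusted p = 0.0551 and 0.0598), and the second was also lost without replicate 2 of QKD embryos at 30%E or replicate 1 at TB. After 75%E *bmp7a* fell by 1.02 in QKD and by 0.95 in WT embryos.

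*bmp4*, a ligand whose mRNA is itself maintained by Bmp signaling, was not called at 30%E, with 129 and 104 in QKD embryos and 107 and 91.3 in WT embryos (log2 change 0.23, SE 0.19, 95% interval -0.18 to 0.65). Its signal at 75%E was 123 and 186 in QKD embryos, against 202 and 259 in WT embryos, and at TB 94.2 and 92.5 in QKD embryos, against 128 and 129 in WT embryos. The groups overlapped at 30%E and lay apart later. The log2 changes of -0.59 and -0.46 were not called (adjusted p = 0.0836 and 0.213), and passed with the replicate block (0.00214 and 0.00924). The 75%E change also passed without replicate 2 of the QKD embryos (0.0239). Between 30%E and 75%E the change of the ligand in QKD embryos was 0.38 (adjusted p = 0.102, and 0.00405 with the block, which is too small for a step between stages), whereas it rose by 1.21 in WT embryos (adjusted p = 0.000171). The difference between these changes was -0.83 (adjusted p = 0.121, and 0.00375 with the block).

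Without the block the 3 ligands were called at different stages, *bmp2b* at each, *bmp7a* at 30%E, and *bmp4* at none. With the block *bmp2b* and *bmp7a* were both called lower at each stage, and *bmp4* at 75%E and TB. No test compared the ligands with one another.

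*szl* encodes Sizzled, a Frizzled-related protein that is induced by Bmp and inhibits the Tolloid-type proteases that cut Chordin. It had the largest decrease among the 10 genes at 30%E and at 75%E. At 30%E its signal was 54.0 and 61.8 in QKD embryos, against 300.3 and 198 in WT embryos, 4.22-fold lower. At 75%E it was 80.0 and 148 in QKD embryos, against 650.5 and 714 in WT embryos, 6.27-fold lower, and at TB 316 and 222 in QKD embryos, against 707 and 638 in WT embryos, 2.53-fold lower.

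No QKD array reached a WT array of its stage for *szl*, and the log2 changes were -2.08, -2.65 and -1.34 (SE 0.27 each, adjusted p = 0.000708, 0.000129 and 0.0124). The TB call was lost without replicate 2 of the QKD embryos or without either WT array (adjusted p up to 0.117). Between 75%E and TB *szl* rose by 1.29 in QKD embryos (adjusted p = 0.00618, and up to 0.0664 without replicate 1 of either stage), while in WT embryos the change was -0.02 (adjusted p = 0.966). The difference between these, 1.31, was not called (adjusted p = 0.214) except with the replicate block (0.0460). Its QKD level at TB, 269 ± 66.8, was near that of WT embryos at 30%E, 249 ± 72.5 (SD, n = 2 each).

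*bambia* encodes a transmembrane pseudoreceptor without a kinase domain that is expressed together with Bmp ligands and dampens the signal. At 30%E it gave 1209 and 996 in QKD embryos, against 1977 and 1626 in WT embryos. At 75%E it gave 806 and 1069 in QKD embryos, against 1248 and 1531 in WT embryos, and at TB 793 and 640.4 in QKD embryos, against 1154 and 1130.0 in WT embryos. The difference was of like size throughout, with log2 changes of -0.71, -0.57 and -0.68 (SE 0.17 each). It was called at 30%E and TB (adjusted p = 0.0278 and 0.0405) and not at 75%E (0.0687, and 0.00326 with the replicate block). Leaving out 1 array gave changes of -0.85 to -0.57 at 30%E and of -0.83 to -0.53 at TB. The TB call was then lost without any of its 4 arrays, and the 30%E call without replicate 2 of QKD or replicate 1 of WT embryos.

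*bmper*, also called crossveinless 2, encodes a secreted protein that binds Bmp ligands and Chordin and can promote or inhibit signaling. It was lower in QKD embryos at 30%E and higher at TB. At 30%E the signal was 22.4 and 19.4 in QKD embryos, against 60.04 and 63.2 in WT embryos (log2 change -1.56, SE 0.14, adjusted p = 5.15e-05). The QKD values lie at the lower quartile of all signals, 20.6 to 24.1 over the arrays, so that the fold may be understated there.

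At 75%E *bmper* gave 249 and 326 in QKD embryos and 279 and 328 in WT embryos, and the groups overlapped (-0.09, adjusted p = 0.798). At TB it gave 614 and 655 in QKD embryos, against 369.6 and 366 in WT embryos, 1.72-fold higher (0.79, adjusted p = 0.00559). Of all probe sets 24, or 0.155%, were called at 30%E and at TB in opposite directions. Without replicate 2 of QKD embryos at TB the adjusted p of the TB change was 0.0503.

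The course of *bmper* over time differed between the groups. Between 30%E and 75%E it rose in both, by 3.77 on the log2 scale in QKD embryos, from the base at the lower quartile, and by 2.30 in WT embryos, and between 75%E and TB by 1.16 in QKD embryos (adjusted p = 0.000185), with a change of 0.28 in WT embryos (adjusted p = 0.163). The QKD change at 75%E exceeded that at 30%E by 1.48 (SE 0.20, adjusted p = 0.00188), a size that rests on that low base, and that at TB exceeded it by 2.35 (adjusted p = 7.12e-05). The step from 75%E to TB, 0.87, passed only with the replicate block (adjusted p = 0.0847 without it and 0.0116 with it).

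*chrd* encodes Chordin, the main organizer antagonist, which binds Bmp ligands until Tolloid-type proteases cut it. At 30%E QKD embryos gave 405 and 348, within reach of the 395 and 363 of WT embryos (log2 change -0.01, 95% interval -0.32 to 0.29). At 75%E they gave 683 and 607, against 1023 and 1207 in WT embryos, and at TB 171 and 215, against 653 and 697 in WT embryos. The gap opened over the course, with log2 changes of -0.79 at 75%E and -1.82 at TB (SE 0.14 each, adjusted p = 0.00483 and 1.96e-05). The 75%E call was lost without replicate 2 of the QKD embryos (adjusted p = 0.0536).

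Both steps of *chrd* differed between QKD and WT embryos. It rose 1.72-fold from 30%E to 75%E in QKD embryos and 2.93-fold in WT embryos, and then fell by 1.75 on the log2 scale in QKD embryos and by 0.72 in WT embryos. The differences of the steps were -0.77 and -1.03 (SE 0.20 each, adjusted p = 0.0495 and 0.0416), and over the whole course -1.80 (adjusted p = 0.000477). The tests of the single steps are close to the threshold, and leaving out 1 array ended the call in 9 of 12 cases for the first (adjusted p up to 0.161) and 10 of 12 for the second (up to 0.158), the arrays outside the step included. *chrd* was the only one of the 4 dorsal genes called lower at any stage.

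*nog1* encodes a Noggin homologue, which also binds Bmp ligands. Its signal at 30%E was 90.8 and 103 in QKD embryos, against 59.4 and 53.4 in WT embryos. At 75%E it was 225 and 233 in QKD embryos, against 155 and 179 in WT embryos, and at TB 202 and 204 in QKD embryos, against 135 and 152 in WT embryos. Every QKD array exceeded the WT arrays of its stage, by 1.72-fold, 1.38-fold and 1.41-fold on average (log2 change 0.78, 0.46 and 0.50, SE 0.12 each, adjusted p = 0.00150, 0.0319 and 0.0251). Leaving out 1 array gave changes of 0.35 to 0.57 at 75%E and of 0.41 to 0.59 at TB. The TB call was then lost without any of its 4 arrays, and the 75%E call without 3 of its 4, the exception being replicate 2 of WT embryos. The gene rose between 30%E and 75%E in both groups, by 1.24 in QKD and by 1.57 in WT embryos.

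*fsta* encodes Follistatin, which binds Activins and some Bmp ligands. In its brighter probe set the 30%E signal was 15.96 and 16.8 in QKD embryos and 17.8 and 15.3 in WT embryos, below the lower quartile of the arrays. At 75%E it was 178 and 167 in QKD embryos, against 64.0 and 82.1 in WT embryos, and at TB 727 and 572 in QKD embryos and 709 and 630.5 in WT embryos. The gene was thus higher at 75%E, 2.38-fold (log2 change 1.25, SE 0.15, adjusted p = 0.000399), while the groups overlapped at the other stages (-0.01 at 30%E and -0.05 at TB).

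The 75%E change of *fsta* exceeded that at 30%E by 1.26 (adjusted p = 0.00734), but a change could hardly be seen at the low 30%E signal of either group, so this difference adds little to the 75%E change itself. The TB change was 1.30 below that at 75%E (difference -1.30, adjusted p = 0.0170). That last call was lost without replicate 2 of QKD or replicate 1 of WT embryos at TB, or without either QKD array at 75%E (adjusted p up to 0.0936). The second probe set gave 117 and 91.3 in QKD embryos at 75%E, against 64.2 and 74.2 in WT embryos, a smaller change in the same direction (0.58, adjusted p = 0.0244). Its changes at 30%E and TB were -0.39 and 0.25 (adjusted p = 0.132 and 0.403), and its step to TB, -0.33, was not called (adjusted p = 0.671), so the 2 probe sets did not give the same call for that step.

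*admp* encodes the anti-dorsalizing morphogenetic protein, a Bmp-type ligand made in the organizer and repressed by Bmp signaling. At 30%E its signal was 1080.5 and 1164 in QKD embryos, against 566 and 548 in WT embryos. At 75%E it was 2242 and 1929 in QKD embryos, against 951 and 1263 in WT embryos, and at TB 834 and 983 in QKD embryos, against 242 and 338 in WT embryos. It was 2.01-fold, 1.90-fold and 3.17-fold higher in QKD embryos in stage order, and no array overlapped.

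For *admp* the log2 changes were 1.01, 0.92 and 1.66 (SE 0.17 each, adjusted p = 0.00382, 0.00726 and 0.000194). With *nog1* it is 1 of 60 probe sets, 0.387% of all, called higher at all 3 stages. Leaving out replicate 1 of QKD embryos at 75%E gave an adjusted p of 0.0703 for that stage. The gene rose between 30%E and 75%E in both groups and then fell, by 1.20 in QKD and by 1.94 in WT embryos. The difference of these falls, 0.74, was not called (adjusted p = 0.288), so a wider gap at TB than before is not shown. Its QKD level at TB, 909 ± 105, was near that of WT embryos at 75%E, 1107 ± 220.4 (SD, n = 2 each). So was its QKD level at 30%E, 1122 ± 59.0. Its QKD level at 75%E, 2086 ± 222, lay above the WT means of all 3 stages. Not every gene had a TB level near an earlier WT stage, as given here for *admp* and above for *szl*. The QKD levels of *bmp2b*, *bmp4*, *bmp7a*, *bambia* and *chrd* (193 ± 30.7) at TB lay below the WT means of all 3 stages. Those of *bmper* (634 ± 29.5) and *nog1* (203 ± 1.5) lay above them. What lies behind these levels was not tested.

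Counting arrays in place of tests, QKD and WT did not overlap for 7, 9 and 9 of the 10 genes at 30%E, 75%E and TB, beside 49.6%, 46.8% and 47.1% of all probe sets. A ratio of mean signals over 2, the kind of rule the study applied, was met by 4, 2 and 3 genes, beside 1.76%, 1.88% and 1.7% of all probe sets. They were *bmp7a*, *szl*, *bmper* and *admp* at 30%E, *szl* and *fsta* at 75%E, and *szl*, *chrd* and *admp* at TB.

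Over the course of QKD embryos 7 of the 10 genes changed from 30%E to 75%E, all upward, where 60.4% of all probe sets changed and 30.9% upward, and 8 changed from 75%E to TB, 3 upward and 5 downward, beside 22.2% (12.1% upward and 10.2% downward). In WT embryos 7 changed over the first step, all upward, beside 57.2% (30.2% upward), and 6 over the second, 1 upward and 5 downward, beside 27.8% (14.1% upward and 13.7% downward). The first step called *bmp7a* in QKD and *bmp4* in WT embryos, and the other 6 genes in both. Between 75%E and TB *fsta* rose 3.74-fold in QKD and 9.22-fold in WT embryos, more than any other of the 10 genes in either, and 3.25-fold and 4.09-fold in its second probe set. The QKD change differed between 75%E and 30%E for 4 genes (*bmp7a*, *bmper*, *chrd* and *fsta*) beside 4.56% of all probe sets, between TB and 75%E for 2 (*chrd* and *fsta*) beside 0.677%, and between TB and 30%E for 3 (*bmp7a*, *bmper* and *chrd*) beside 5.73%.

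The levels of the 10 genes over the 12 arrays fell into a few likenesses, given as Pearson's r of log2 signal and as description only, since the arrays share their stages and their knockdown. *bmp2b* and *bambia* were alike (0.88), as were *bmp2b* and *bmp7a* (0.78) and *bmp7a* and *bambia* (0.77). *bmper* went with *fsta* (0.89), both rising steeply with stage, and *bmp4* went with *chrd* (0.85), both highest at 75%E in either group. The lowest r was that of *bambia* and *nog1* (-0.72).

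**Figure D2:**
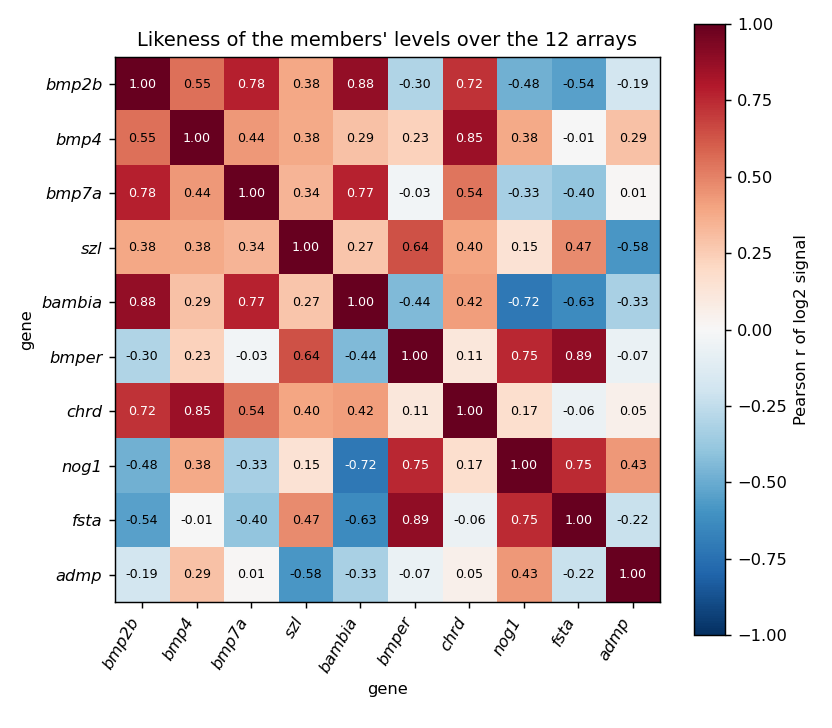
Pearson's r of log2 signal over the 12 arrays for each pair of the 10 genes, red for like and blue for opposed levels. *bmp2b*, *bmp7a* and *bambia* stand together at 0.77 to 0.88, and *szl* has its highest r with *bmper* (0.64) and its lowest with *admp* (-0.58).

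Set against 5920 probe sets with a single gene name and a signal over the median, the profiles most like *szl* were those of *spry2* (0.96), an inhibitor of receptor tyrosine kinase signaling, and *tfap2a* (0.96), a factor of the non-neural ectoderm. *bmper* was most like *gata5* (0.991), a factor of endoderm and heart, with *arrb2b* (0.989) and *lamb1a* (0.985) close behind. *bmp4* was most like *smad7* (0.919), an inhibitory Smad, and then *sf3b2* (0.912). These ranks are description only, and shared regulation was not tested. The 3 nearest to *chrd* were *cndp2* (0.95), *exosc4* (0.94) and *foxi1* (0.92), the last a factor of the non-neural ectoderm. *exosc4* was also among the 3 nearest to *bmp4* (0.91), and the third nearest to *szl* was *tardbpa* (0.95). The nearest genes to *bmp2b*, *bmp7a* and *bambia* were *slc2a8* (0.95), *ccnb3* (0.95) and *klf17* (0.93), and those to *nog1*, *fsta* and *admp* were *rab7a* (0.98), *jam3b* (0.995) and *fscn1a* (0.93).

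The rest of the pathway was read from lists of named genes, whose counts stand beside the 8.06%, 8.39% and 6.36% of all probe sets called at 30%E, 75%E and TB. Counts with the replicate block, for these lists and the markers below, stand beside more calls, 2210, 2622 and 2109 of the 15502 probe sets. Of 23 measured genes among 56 further Bmp ligands and secreted modulators, 1 was higher and 3 were lower at 30%E, 3 were higher at 75%E, and 1 was higher and 2 were lower at TB, with median log2 changes of -0.10, -0.02 and 0.11. With the replicate block 2 were higher and 3 lower at 30%E, 3 higher and 2 lower at 75%E, and 4 higher and 2 lower at TB. At 30%E *bmp15*, an oocyte ligand, gave 381 and 384 in QKD embryos, against 156 and 194 in WT embryos (1.14, adjusted p = 0.00496), and *sfrp1a*, a Frizzled-related Wnt antagonist, gave 262 and 185 in QKD embryos, against 544 and 541 in WT embryos (-1.30, adjusted p = 0.00431), whereas at TB it was called higher with the block alone (0.68, adjusted p = 0.123 without it and 0.00610 with it). At TB the Bmp-family ligand *gdf6a* gave 16.7 and 14.5 in QKD embryos, against 53.3 and 32.4 in WT embryos (-1.42, adjusted p = 0.00107), and *bmp2a* was lower by 0.72 (log2 change -0.72, adjusted p = 0.00778). The QKD signal of *gdf6a* at TB lay below the lower quartile of the arrays, 20.6 to 24.1, so that the fold may be understated there. That of *bmp2a*, 24.3 and 26.3, lay just above it. The Bmp co-receptor *rgma* was higher at 75%E and TB (0.53 and 0.65, adjusted p = 0.0203 and 0.00748).

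Of 14 measured receptors and Smads among 25 listed, none was called at 30%E by limma (2 had an unadjusted p under 0.05, and 0 passed with the replicate block). At 75%E 2 were higher, *smad1* (0.68, adjusted p = 0.00362) and the type II receptor *acvr2ba* (0.49, adjusted p = 0.0400). At TB *smad1* was higher (0.55, adjusted p = 0.0140) and the type I receptor *bmpr1ba* lower (-0.70, adjusted p = 0.00927). With the block 2 were higher and 3 lower at 75%E, and 1 was higher and 3 were lower at TB. The lower ones at 75%E were *bmpr1ba* (-0.45, adjusted p = 0.00622 with the block), the type I receptor *acvrl1* (-0.45, 0.00949) and *smad7* (-0.37, 0.0238), and at TB *bmpr1ba*, *acvrl1* (-0.35, 0.0352) and the inhibitory *smad6a* (-0.35, 0.0325). The *acvrl1* signal at 75%E was 18.1 and 21.3 in QKD embryos, against 22.6 and 31.7 in WT embryos. That is near the lower quartile of the arrays, 20.6 to 24.1, which limits what its change can show. The median changes were 0.00, -0.09 and 0.00 in stage order.

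Genes listed here as Bmp targets of the ventral side were mostly lower where they were called. The list is broad, and *tbx16* and *krt4* on it also serve here as mesoderm and enveloping layer markers. Whether each listed gene, *cdx4* included, responds to Bmp in these embryos was not tested here. The study reported by RT-PCR that *bmp2b* and *bmp7* mRNA injected with the MOs restored *gata2*, *eve1* and *szl* at the shield stage, which was not hybridized. Of 23 listed, all measured, 10 were lower and 1 higher at 30%E, 10 were lower at 75%E and 12 at TB, with medians of -0.46, -0.34 and -0.56. With the block 13 were lower and 1 higher at 30%E, 12 lower and 1 higher at 75%E, and 14 lower and 1 higher at TB. The largest decreases at 30%E were those of *tfap2c* (-2.71), *eve1* (-2.32) and *cdx4* (-2.31), and *id2a* was the one higher gene (0.48, adjusted p = 0.0453). At 75%E *dlx3b* (-2.57), *msx1a* (-2.37) and *tfap2c* (-2.28) had the largest decreases of the list, and at TB *tfap2c* (-2.61), *msx1a* (-2.20) and *tp63* (-2.17). The homeobox repressors of dorsal genes had smaller values, in stage order -1.09, -0.33 and -0.82 for *vent*, called at 30%E and TB, -0.56, -0.14 and -0.28 for *vox*, called at 30%E, and -0.46, -0.63 and -0.14 for *ved*, called at 75%E (adjusted p = 0.0281) and with the block at 30%E (0.0192).

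The list of organizer and dorsal genes is broad as well. On it *tbxta*, *noto*, *foxa2* and *shha* also serve here as mesoderm or axial midline markers, and *frzb* is also among the further modulators. At 30%E *frzb* counts as lower in both lists, with signals of 11.9 to 16.6 on the 4 arrays, below the lower quartile. Whether each listed gene is confined to the organizer or the dorsal side was not tested here. The study's in situ stainings cover some of them, such as *gsc*. Of the 18 genes, 6 were lower at 30%E, 1 was higher and 1 lower at 75%E, and 2 were higher and 3 lower at TB. The medians were -0.25, -0.02 and 0.15, and the 2 of 18 at 75%E are near the 8.39% of all probe sets. With the block 1 was higher and 7 lower at 30%E, 2 higher and 1 lower at 75%E, and 3 higher and 4 lower at TB. The 75%E counts with the block are likewise near the share of all probe sets, 2622 of 15502. *lhx1a*, a LIM homeobox factor of the organizer, was lower at 30%E (-0.85, adjusted p = 0.00206) and higher at TB (1.21, adjusted p = 0.000247), and with the block also higher at 75%E (0.46, adjusted p = 0.0562 without it and 0.0140 with it). *noto*, a notochord factor, was higher at TB (0.89, adjusted p = 0.000684). The retinoic acid-degrading enzyme gene *cyp26a1* was lower at 75%E and TB (-1.67 and -0.89, adjusted p = 0.000341 and 0.0187), and at 30%E higher with the block alone (0.53, adjusted p = 0.147 without it and 0.0168 with it). *six3b*, a homeobox gene of the forebrain, was lower at TB (-1.04, adjusted p = 0.00405). The mesoderm factor *tbxta* was lower at 30%E (-0.51, adjusted p = 0.00716) and was the 1 gene higher at 75%E (0.39, adjusted p = 0.0313).

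**Figure D3:**
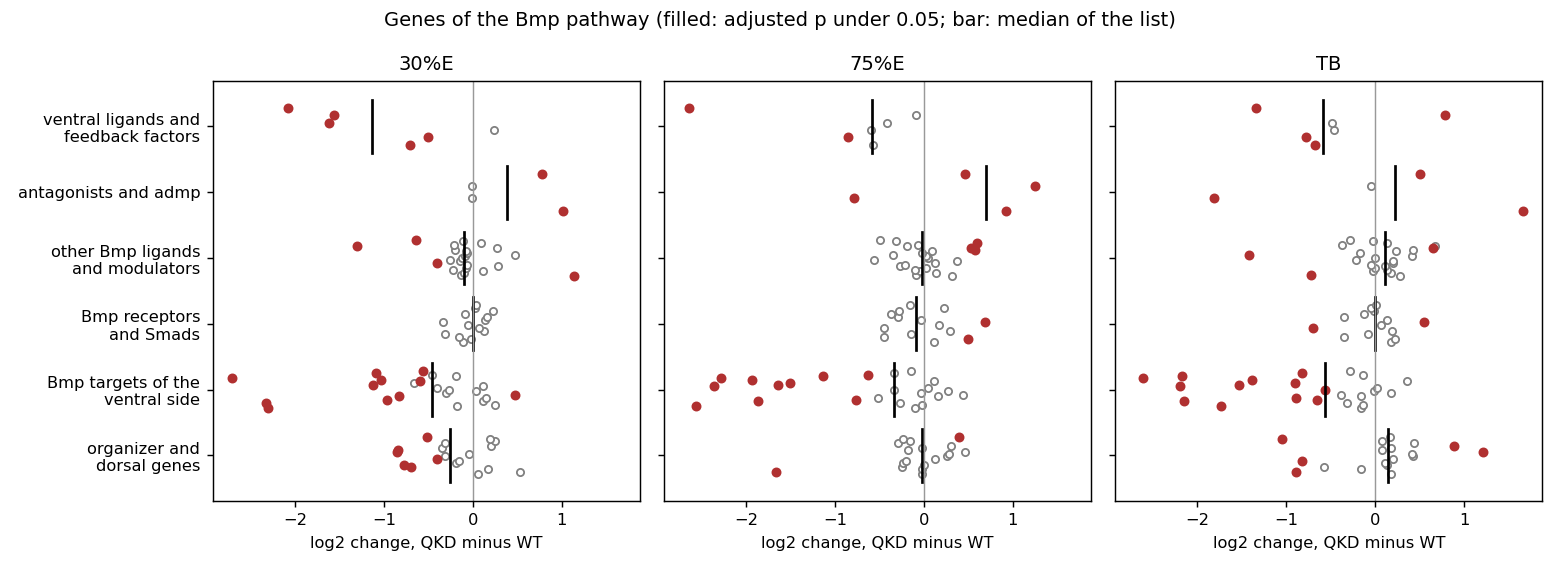
Log2 change of QKD against WT embryos (horizontal axis) for each measured gene of 6 lists at 30%E, 75%E and TB, filled where the adjusted p was under 0.05, with a bar at each list's median. The ventral genes have medians of -1.14, -0.58 and -0.58 and the genes listed as Bmp targets of -0.46, -0.34 and -0.56, while receptors and Smads lie around 0.

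Markers of cell types and of stress moved with the groups, and their part in the results was not tested. The summed signal of 3 neural ectoderm markers, of which *sox2* and *sox3* are also targets of the MOs, was 6027 to 6397 in QKD and 4043 to 4544 in WT embryos at 30%E, 11148 to 11589 in QKD and 4466 to 4977 in WT embryos at 75%E, and 10264 to 10816 in QKD and 4952 to 4972 in WT embryos at TB. The other marker of that list, *zic2a*, was lower at each stage (-1.13, -1.10 and -1.85). The calls of this list did not follow its sum at 30%E, where 1 marker, *sox3*, was higher and 2 were lower. At 75%E and TB 2 were higher and 1 was lower. Of 3 non-neural ectoderm markers, which are on the list of Bmp targets too, 1 was lower at 30%E and 3 at 75%E and TB, and their summed signal was 425 to 441 in QKD and 616 to 640.5 in WT embryos at 30%E, 1032 to 1284 in QKD and 2196 to 2535 in WT embryos at 75%E, and 816 to 1058 in QKD and 1883 to 1944 in WT embryos at TB.

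The 3 measured mesoderm markers summed to 3365 to 3866 in QKD and 5065 to 5713 in WT embryos at 30%E, where 2 were lower, to 4303 to 4558 in QKD and 3648 to 3959 in WT embryos at 75%E, where 2 were higher, and to 2171 to 2494 in QKD and 1864 to 1984 in WT embryos at TB, where none was called by limma (1 had an unadjusted p under 0.05, and 1 passed with the block). The 3 axial midline markers summed to 1593 to 1634 in QKD and 1451 to 1459 in WT embryos at 30%E, to 1905 to 1999 in QKD and 1721 to 1867 in WT embryos at 75%E, and to 1993 to 2165 in QKD and 1412 to 1525 in WT embryos at TB. At 30%E the calls did not follow the sum. There *foxa2* was lower (-0.78, adjusted p = 0.00236), and *noto*, the brightest of them, was not called (0.20, adjusted p = 0.409). None was called at 75%E, and 1 was higher at TB. The 3 endoderm markers summed to 1739.7 to 2151 in QKD and 2352 to 2557 in WT embryos at 75%E and overlapped at the other stages. At 30%E 1 endoderm marker was called higher and 1 lower. The 5 enveloping layer markers summed to 6115 to 8394 in QKD and 9091 to 10584 in WT embryos at 30%E, and overlapped later. At 30%E 1 of them was called lower by limma, while 4 had an unadjusted p under 0.05 and 4 were lower with the block. The 2 yolk syncytial layer markers lay lower in QKD embryos at 30%E and 75%E and higher at TB, the 3 germ cell markers lay lower at 75%E and overlapped at the other stages, and no gene of either list was called by limma (1 germ cell marker had an unadjusted p under 0.05 and passed with the block, at 30%E). Of 3 measured stress markers 2 were higher at TB, *mdm2* (0.58) and *ccng1* (0.60). The sum of the 3 overlapped at 30%E, was 3755 to 4052 in QKD and 3284 to 3430 in WT embryos at 75%E, and 3952 to 4453 in QKD and 2612 to 2952 in WT embryos at TB. At 75%E the calls did not follow the sum, as none of the 3 was called and their median log2 change was -0.12. The array medians lay between 73.5 and 76.6 on all 12 arrays.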

How the data were processed

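Arrays were hybridized with labeled cRNA from whole embryos, and the deposited intensity values are linear signals that the authors made with the RMA program, which corrects background, equalizes the arrays and summarizes the probes of a set. Its version and which arrays were run together are not given in the sources used here. RMA brings the arrays to like distributions, so a shift shared by most genes would not be seen. Scanner files were not analysed here.

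Log2 of the signal was taken, 115 control probe sets of 15617 were left out and 15502 were tested. The platform annotation names 1 gene for 10795 of them, several for 135 and none for 4572, and 1 symbol was updated. Where a gene had more than 1, the probe set brightest on average over the 12 arrays stood for it. The linear model (limma 3.58.1, run under R 4.3.3) estimated 6 group means by lmFit and moderated the variances by eBayes, which left 6 residual degrees of freedom and added 5.11 from the prior. P-values were adjusted by Benjamini-Hochberg over the 15502 probe sets of a comparison and called under 0.05. Stage courses and differences between changes are contrasts of that fit. Figures were drawn in Python 3.11.15 with matplotlib 3.10.9.

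The replicate numbers in the labels were checked for pairing. Deviations from the group means of same-numbered QKD and WT samples correlated at 0.615, 0.443 and 0.488 within 30%E, 75%E and TB, and at -0.0835 to 0.161 across stages. A second fit therefore blocked on the number inside a stage, and its p is given where it changes a call among the 10 genes, and its counts for the lists of pathway genes. The block takes the spread between replicates of a stage out of the error. For a step between stages within QKD or within WT embryos that spread belongs to the error, so the block's p is too small there.

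On simulated data of 15502 probe sets a change of 1 in log2 was called for 98, 95 and 99 of 100 at 30%E, 75%E and TB, and a change of 2 for 100 of 100 in every stage, with 12, 14 and 16 false calls among the rest. The simulated noise was normal and independent between arrays, without the shared deviation of same-numbered samples. These rates therefore check the code and need not hold for the real arrays.

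The 10 genes and the lists of other pathway genes and markers were chosen with earlier results of these data known, so the counts over a list are descriptions. Named genes are the 10 members, the targeted genes, from each list the called genes with the 4 largest changes and any alone in its direction, and the genes most like a member. Other list genes named (*cdx4*, *tp63*, *vent*, *vox*, *ved*, *acvrl1*, *smad6a*, *smad7* and the markers) were chosen after their values were seen. Alternatives were Student's t-test, which the study's tables name, the study's ratio over 2, other scalings, filters, offsets and variance models, the replicate block and each array left out.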

Additional observations from a re-analysis of the deposited data

Results flagged for a closer look

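For 4 of the 10 genes the change in QKD embryos differed between stages by the test of that difference, and these are the results to look at again. For *bmp7a* the change at 75%E exceeded that at 30%E by 1.20 on the log2 scale and that at TB exceeded it by 1.14, the QKD embryos starting far below WT and closing most of the gap. For *bmper* these differences were 1.48 and 2.35, both from a 30%E signal at the lower quartile in QKD embryos, and its direction turned from lower at 30%E to higher at TB. For *chrd* they were -0.77 and -1.80, with a further -1.03 between 75%E and TB. *fsta* differed by 1.26 between 75%E and 30%E in its brighter probe set, whose 30%E signal lay below the lower quartile in both groups, so that a change there could hardly be seen, and by 0.98 in the other probe set, with 29.9 and 26.4 in QKD and 37.4 and 36.4 in WT embryos at 30%E. Between TB and 75%E it differed by -1.30 in the brighter. The contrast between TB and 30%E was added after seeing the data. Groups of 2 arrays are too small for a test of single outlying samples.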

How the results depend on the processing

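No call among the 10 genes changed sign under any alternative run. Student's t-test with Benjamini-Hochberg adjustment over all probe sets called 0 of the 10 at 30%E, 75%E and TB, on log2 and on linear signal, as it called 0 of all probe sets. At an unadjusted p under 0.05 on linear signal it had 5, 7 and 8 of the 10, beside 2249, 1788 and 1994 of all probe sets. The ratio over 2 gave 4, 2 and 3. Of the 2 genes whose change differed between TB and 75%E, a low-signal filter and an offset of 16 each left 1, and the replicate block within each stage gave 4. With that block 15 further single results passed and none was lost, and those not given in the report are that *bambia* fell over both steps in QKD embryos (adjusted p = 0.0471 and 0.0124) and in WT embryos (0.00615 and 0.0454), that *bmper* rose in WT embryos over the second step (0.0481) and that the *bmp4* change differed between TB and 30%E (0.00773). For the *bambia* and *bmper* steps the block's p is too small, since it leaves out the spread between replicates, so these steps are not shown by it.

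Leaving out 1 array at a time gave 5 to 7 genes at 30%E, 4 to 6 at 75%E and 3 to 7 at TB, 6 to 8 and 6 to 8 over the QKD steps, 7 to 7 and 5 to 6 over the WT steps, and 2 to 4 and 0 to 2 for the differences between 75%E and 30%E and between TB and 75%E.

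Single calls also moved. Leaving out 1 array ended those of *bmp4* between 75%E and TB (in QKD embryos without replicate 2 at 75%E or either at TB, adjusted p up to 0.193, and in WT embryos without replicate 2 at 75%E, 0.0570) and that of *szl* in QKD embryos between 30%E and 75%E (replicate 1 at 30%E or 2 at 75%E, up to 0.144). From 30%E to 75%E *bmp2b* in WT embryos passed with the offset (0.0450) and *bmp4* in QKD embryos with a second quantile normalization (0.0237). *bambia* at 75%E passed with a variance trend (adjusted p = 0.0467) and at TB did not with the offset (0.0557). *nog1* did not pass at 75%E or TB in a fit per stage (0.122 and 0.0593). The *chrd* difference between 75%E and 30%E was not called with array medians centred, a second quantile normalization or an additive block (0.0603, 0.0811 and 0.0525), and that between TB and 75%E not with the filter or the offset (0.0562 and 0.0542). Uncalled values near 0 changed sign: with the second quantile normalization *fsta* at 30%E was 0.0197 and the WT step of *szl* to TB 0.0299, and in the dimmer probe set *fsta* was 0.25 at TB and 0.64 between TB and 30%E. Leaving out 1 array did the same at 30%E for *chrd* (-0.12 to 0.095) and *fsta* (-0.12 to 0.10), at 75%E for *bmper* (-0.28 to 0.11), at TB for *fsta* (-0.22 to 0.12) and for the WT step of *szl* to TB (-0.096 to 0.053). It did so too for the difference between 75%E and 30%E of *bambia* (-0.070 to 0.34) and *admp* (-0.29 to 0.12), for that between TB and 75%E of *bmp2b* (-0.00092 to 0.16), *bmp4* (-0.17 to 0.43), *bmp7a* (-0.21 to 0.084), *bambia* (-0.31 to 0.098) and *nog1* (-0.065 to 0.15), and for that between TB and 30%E of *bambia* (-0.13 to 0.18) and *fsta* (-0.22 to 0.13). The cause was not tested. Signals at or under the lower quartile, as for *fsta* and for QKD *bmper* at 30%E, limit what a fold can show.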
